A study of Homo sapiens with 4 samples.

Results

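LAMC1, ITGB1, CD164, VAMP3, RHOG, IQGAP1, CDK4, CDK6, EZH2, and SOX9 are 10 genes that neural and cancer studies have described as miR-124 targets. They were named for that literature, with no measured value in the rule but with earlier results of these data known, and their symbols were matched to the Ensembl identifiers of 58243 genes with RNA-seq values. All 10 were found, and all 10 were among the 12697 genes with at least 200 recovered reads over the 4 libraries and a value above 0 in each. The RNA came from 293T, a human embryonic kidney cell line that carries the SV40 large T antigen. Cells were transfected with a negative control RNA or with a mimic of miR-1, miR-122, or miR-124, a mimic being a synthetic double-stranded form of the miRNA. There was 1 library for each condition, made from total RNA with an mRNA-seq kit. The RNA was taken 48 h after transfection according to the labels, while the methods of the study give a shorter time.

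miRNAs are short RNAs that guide Argonaute proteins to complementary sites, mostly in the 3′ untranslated region (3′ UTR) of mRNAs, where they reduce translation and mRNA stability. Pairing rests mainly on the seed, positions 2 to 8 counted from the 5′ end of the miRNA. miR-124 is the abundant miRNA of neurons, and when it is introduced into non-neuronal cells, many mRNAs that neurons keep low become less abundant. miR-1 belongs to heart and skeletal muscle and miR-122 to the liver, so that their libraries here served as other mimics of the same transfection.

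The values were FPKM, the fragments of a gene scaled by its length and by the depth of the library. The read numbers behind them, recovered from the steps between values, put the depth at 6624306 reads for the control and at 9452232, 5887055, and 6465436 reads for the miR-1, miR-122, and miR-124 libraries. Intervals given below are 95% exact Clopper-Pearson intervals for the ratio of 2 libraries. They cover counting error only, and with 1 library per condition no test of the conditions was possible. Of 8 marker genes of 293T cells, 6 had at least 200 reads in all, and the summed reads of the 8 were between 16950 and 26344 in each library. PAX2 was among the lowest of them, with 12 to 30 reads. Liver markers (ALB, APOA1, and TTR) summed to 2 or 3 reads in each library, the muscle markers to between 23 and 48, and the neuronal markers to between 110 and 150, with MAP2 the 1 neuronal marker tested.

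The longest 3′ UTR annotated for a gene (GENCODE release 44, GRCh38) was searched on the mRNA strand for GTGCCTTA, the letters opposite the miR-124 seed followed by an A. A match to all letters is an 8mer, without the final A it is a 7mer-m8, without the first letter a 7mer-A1, and without both a 6mer. Not every match is shown: the windows below give, for each gene, the most complete type it had, and for VAMP3 also a 7mer-m8. Each has 30 bases of the 3′ UTR as DNA, 5′ to 3′ on the mRNA strand, and the capitals mark the letters that match.
CD164, 8mer, chr6:109368193-109368222, minus strand: gtcattgagaatataaagaacaGTGCCTTA
CD164, 8mer, chr6:109367192-109367221, minus strand: tacatatacttaatgttttcaaGTGCCTTA
VAMP3, 8mer, chr1:7780060-7780089, plus strand: aaatctgtgataacaacaggctGTGCCTTA
VAMP3, 7mer-m8, chr1:7779763-7779792, plus strand: taaagttgaatttctaggaaacGTGCCTTt
IQGAP1, 8mer, chr15:90500961-90500990, plus strand: aaaactgttttatatcttaagaGTGCCTTA
RHOG, 8mer, chr11:3827480-3827509, minus strand: tggtgccttgtccgcctcagctGTGCCTTA
LAMC1, 7mer-m8, chr1:183142828-183142857, plus strand: ggggcagttgtgaggccacagaGTGCCTTg
ITGB1, 7mer-m8, chr10:32901327-32901356, minus strand: tcttgtcagctaaggtcacattGTGCCTTt
CDK6, 7mer-m8, chr7:92613600-92613629, minus strand: ccccaggctgtgcttatttctaGTGCCTTg
EZH2, 7mer-A1, chr7:148807604-148807633, minus strand: cctcccccctcctctgaaacagcTGCCTTA
SOX9, 7mer-A1, chr17:72125094-72125123, plus strand: ggctttgcgatttaaggaggagcTGCCTTA
CDK4, 7mer-A1, chr12:57748388-57748417, minus strand: tctttctacagagattactttgcTGCCTTA

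The 3′ UTRs of the known targets were rich in these matches. At least 1 8mer was present in 4 of the 10 (CD164, VAMP3, RHOG, and IQGAP1), while 3.90% of the 11206 tested genes with an annotated 3′ UTR had one. An 8mer or 7mer was present in 9 of the 10, beside 28.0% of the 11206 genes. All 10 had a match of some kind, beside 54.0%. Because the literature that named these genes used such matches, their number describes the choice of genes and is not a result of the transfection. A match in these letters is not evidence of binding.

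RHOG had the densest run, with 1 8mer, 3 7mer-m8 matches, and 1 6mer in 585 bases. A 7mer or 8mer was found in 9.70% of the 1010 3′ UTRs whose length was between 80 and 120% of that of RHOG. At least 4, as in RHOG, were found in 0.099% of them, a share so small that it may be RHOG alone. For VAMP3, with 1 8mer and 2 7mer-m8 matches in 1787 bases, the share with at least 1 among 3′ UTRs of like length was 25.9%. The share with at least 3 was 0.696%. CDK6 had 2 7mer-m8 and 2 7mer-A1 matches, but its 3′ UTR runs to 10219 bases. Of the 215 3′ UTRs of like length, 79.1% had at least 1 and 10.2% had at least 4. LAMC1 carried 3 7mer-m8 matches and 1 7mer-A1. Of 3′ UTRs of like length, 36.2% had at least 1 and 0.283% had at least 4. The EZH2 3′ UTR of 263 bases had 1 7mer-A1 and 1 6mer. Matches of 7 or 8 letters were less rare in the other genes. The share of like length with at least as many was 6.88% for CD164, 5.72% for IQGAP1, and 5.45% for SOX9. It was 5.06% for EZH2 and 18.9% for CDK4.

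For ITGB1 the answer depended on the transcript. Its longest annotated 3′ UTR belongs to 1 of 21 transcripts and held 2 6mers, whereas the canonical transcript, like 18 of the 21, had 2 7mer-m8 matches, at positions 236 and 1095 of a 3′ UTR of 1252 bases. The ITGB1 window printed above is from the canonical transcript, which was examined after the result for the longest one had been seen. The 8mer of IQGAP1 was in 1 of 4 transcripts and that of VAMP3 in 1 of 2. In both genes that transcript is the canonical one and has the longest 3′ UTR. The first CD164 window was in all 6.

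**Figure D1:**
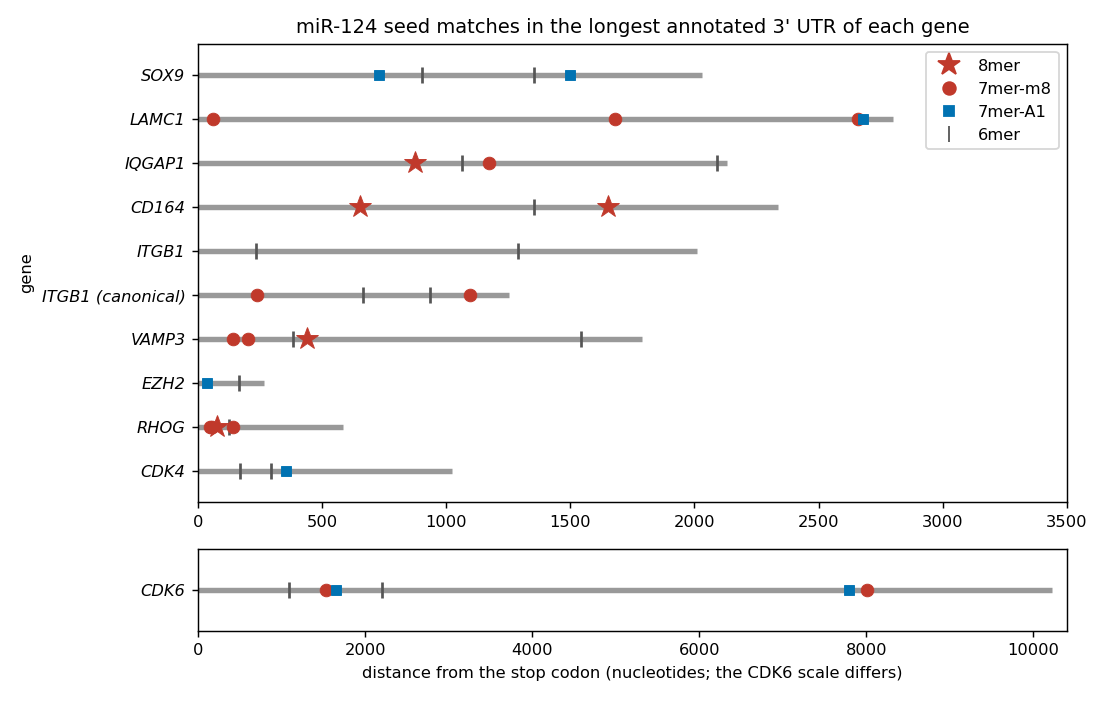
Position of each miR-124 seed match, as distance from the stop codon in nucleotides, along the longest annotated 3′ UTR of the 10 genes (grey lines), with the canonical transcript of ITGB1 added. Stars are 8mers, circles 7mer-m8, squares 7mer-A1, and ticks 6mers; CD164 has 2 stars, and the matches of RHOG crowd into the start of its 585 bases.

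In the miR-124 library, 8 of the 10 genes were lower than in the control RNA library, as were 56.4% of all genes tested. The ratio was at or below 0.8 for 6 of them, SOX9, CDK6, LAMC1, IQGAP1, CD164, and ITGB1, whereas 16.3% of all genes tested were that low. The count of 6 was 4 after centring on the median of all genes, and 1 (SOX9) with a pseudocount of 1. The share of all genes was not computed under either setting. At a threshold of 1.5-fold the count was 1 (SOX9), beside 3.06% of all genes. The whole interval was below 1 for 7 of the 10, those 6 and VAMP3, beside 21.8% of all genes. None of the 10 was higher by the same fold, that is, at or above the reciprocal of 0.8, which 10.3% of genes reached. The median log2 ratio of the 10 was -0.36, beside -0.05 for all genes tested. In bulk RNA, fewer cells that express a gene and less RNA of it per cell cannot be told apart.

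The same genes were lower with the other mimics in part. With miR-1, 2 of the 10 were at or below 0.8 (ITGB1 and SOX9), beside 18.4% of all genes, and 5 had a whole interval below 1, beside 24.6%. None was higher with miR-1 by that fold, which 7.44% of genes were. With miR-122, 4 of the 10 were at or below 0.8 (LAMC1, IQGAP1, CDK6, and SOX9), beside 12.3%, and the same count of 4 had a whole interval below 1, beside 16.3%. CD164 was the 1 gene that was higher with miR-122 by that fold, as 7.92% of all genes were. With miR-1 the 10 had a median log2 ratio of -0.10 (all genes, -0.05), and with miR-122 one of -0.12 (all genes, -0.02). LAMC1, ITGB1, IQGAP1, CDK6, and SOX9 had ratios below 1 in all 3 mimic libraries, as did 33.9% of all genes. The 3 comparisons share the control RNA library, so these counts are not independent of each other.

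**Figure D2:**
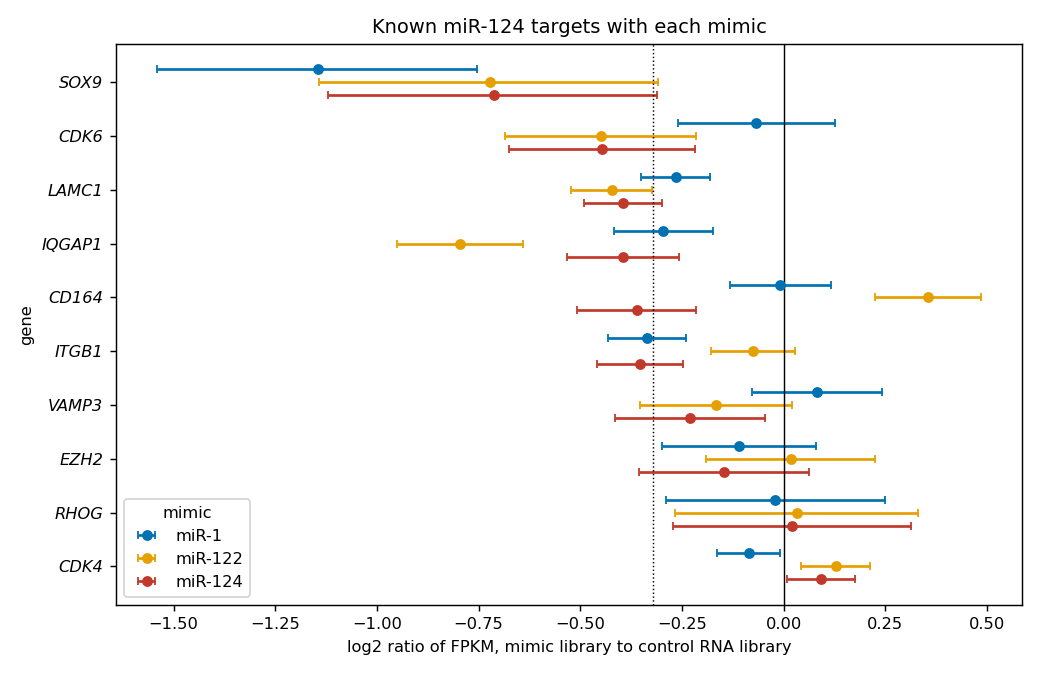
Log2 ratio of each gene in the miR-1, miR-122, and miR-124 libraries to the control RNA library (points), with 95% counting intervals (bars), ordered by the miR-124 ratio. The solid line is no difference and the dotted line a ratio of 0.8; for SOX9 all 3 points lie left of the dotted line, whereas for CD164 only the miR-124 point does.

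To ask what was particular to miR-124, its library was compared with the miR-1 and miR-122 libraries, which takes the control RNA library out of the comparison. Against the mean of those 2 libraries, 1 of the 10 genes, CD164, was at or below 0.8, beside 6.84% of all genes. Against their pooled reads, the whole interval was below 1 for 4 of the 10, CD164, CDK6, VAMP3, and ITGB1, beside 15.9% of genes. The median log2 difference of the 10 from that mean was -0.077, and that of all genes was -0.01. The genes are taken below by the roles of their proteins.

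CD164 (ENSG00000135535, chr6:109366514-109382467) encodes a sialomucin of endosomes and the cell surface with a part in cell adhesion. Its FPKM was 8.51 in the control and 8.47, 10.9, and 6.63 in the miR-1, miR-122, and miR-124 libraries. The miR-124 library was thus the lowest and the miR-122 library the highest of the 4. The ratio of miR-124 to control was 0.778 (interval 0.704 to 0.861) from 683 and 899 reads. Against the other 2 mimics pooled it was 0.705 (0.646 to 0.768), and 1.76% of all genes tested were lower on that scale. Taken singly, the ratio was 0.783 (0.712 to 0.859) to miR-1 and 0.609 (0.552 to 0.671) to miR-122. CD164 was the only one of the 10 whose interval was below 1 against each of the 3 other libraries. It also has a miR-1 8mer (ACATTCCA), and its ratio with miR-1 was 0.995 (0.913 to 1.08).

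VAMP3 (ENSG00000049245, chr1:7771296-7781432) encodes cellubrevin, a vesicle SNARE of recycling endosomes. Its FPKM was 7.95 in the control and 8.41, 7.09, and 6.77 in the miR-1, miR-122, and miR-124 libraries. With miR-124 the ratio to control was 0.852 (0.750 to 0.968), short of the threshold, and the ratio to the other mimics pooled was 0.857 (0.767 to 0.956). The difference was clear of counting error against miR-1, at 0.805 (0.716 to 0.905), but not against miR-122, at 0.956 (0.835 to 1.09).

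LAMC1 (ENSG00000135862, chr1:183023420-183145592) encodes the laminin γ1 chain of basement membranes, and ITGB1 (ENSG00000150093, chr10:32887273-33005792) encodes integrin β1, a subunit of the receptors that bind laminin. LAMC1 FPKM was 2.58 in the control and 2.15, 1.93, and 1.97 in the miR-1, miR-122, and miR-124 libraries. The libraries of miR-1, miR-122, and miR-124 were all below control, with ratios of 0.832 (0.785 to 0.882), 0.746 (0.696 to 0.799), and 0.760 (0.712 to 0.812). Against the other mimics pooled, the miR-124 ratio was 0.952 (0.897 to 1.01). Taken singly, it was 0.914 (0.857 to 0.974) to miR-1, with an interval below 1, and 1.02 (0.948 to 1.10) to miR-122. ITGB1 FPKM was 2.39 in the control and 1.89, 2.26, and 1.87 in the miR-1, miR-122, and miR-124 libraries. The miR-1 and miR-124 libraries were alike in being low, at ratios of 0.793 (0.742 to 0.847) and 0.783 (0.728 to 0.843), while that of miR-122 was 0.948 (0.883 to 1.02). Between miR-124 and miR-1 the ratio was 0.988 (0.919 to 1.06), and between miR-124 and miR-122 it was 0.826 (0.765 to 0.891). The length behind the ITGB1 values came to 89.0% of its annotated distance from start to end, and for the other 9 genes it was between 99.8 and 100.3%.

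IQGAP1 (ENSG00000140575, chr15:90388242-90502239) encodes a scaffold that ties Rac1 and Cdc42 to actin, and RHOG (ENSG00000177105, chr11:3826978-3840959) encodes a small GTPase that acts upstream of Rac1. IQGAP1 FPKM was 1.35 in the control and 1.10, 0.776, and 1.02 in the miR-1, miR-122, and miR-124 libraries. The lowest level was that of the miR-122 library, at a ratio of 0.576 (0.518 to 0.641) to control, and 0.583% of all genes were lower with miR-122. With miR-124 the ratio was 0.761 (0.691 to 0.837) to control, 0.934 (0.851 to 1.02) to miR-1, and 1.32 (1.18 to 1.48) to miR-122. IQGAP1 has 1 7mer-m8 and 1 7mer-A1 match to the miR-122 motif ACACTCCA, as does LAMC1. A miR-122 8mer or 7mer was present in 5 of the 10 genes, beside 26.4% of the 11206 genes with a 3′ UTR. The part of these matches in the ratios was not tested. RHOG, in spite of the densest run of miR-124 matches, had nearly one level: 2.12 FPKM in the control and 2.09, 2.17, and 2.15 in the miR-1, miR-122, and miR-124 libraries. Its ratio with miR-124 was 1.01 (0.828 to 1.24) from 195 and 197 reads, an interval that does not include 0.8 but includes a decrease as large as that of VAMP3.

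CDK4 (ENSG00000135446, chr12:57747727-57756013) and CDK6 (ENSG00000105810, chr7:92604921-92836573) encode the cyclin D-dependent kinases that phosphorylate RB in G1. CDK6 FPKM was 0.248 in the control and 0.237, 0.182, and 0.182 in the miR-1, miR-122, and miR-124 libraries. Its ratio to control was 0.734 (0.626 to 0.860) with miR-124 and 0.732 (0.622 to 0.862) with miR-122, and between those 2 libraries the ratio was 1.00 (0.841 to 1.20). Its interval below 1 against the pooled mimics, at 0.844 (0.733 to 0.971), came from the miR-1 library, to which the ratio was 0.769 (0.662 to 0.892). CDK6 has a miR-1 8mer, and its ratio with miR-1 was 0.955 (0.835 to 1.09). CDK4 went the other way: its FPKM was 42.3 in the control and 39.9, 46.3, and 45.1 in the miR-1, miR-122, and miR-124 libraries, a ratio of 1.07 (1.01 to 1.13) with miR-124. The CDK4 values are uncertain, since 44.2% of its exon bases are shared with TSPAN31 on the opposite strand, a gene with 6213 reads in all, and whether the counting used the strand is not given in the sources used here.

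EZH2 (ENSG00000106462, chr7:148807257-148884321) encodes the histone H3 lysine 27 methyltransferase of Polycomb repressive complex 2 (PRC2), and SOX9 (ENSG00000125398, chr17:72121020-72126416) encodes a transcription factor of glial and chondrocyte fate. EZH2 FPKM was 0.799 in the control and 0.740, 0.808, and 0.722 in the miR-1, miR-122, and miR-124 libraries. Its miR-124 ratio of 0.904 (0.782 to 1.04) was not distinguishable from 1 at this depth, nor was that to the other mimics pooled, 0.942 (0.831 to 1.07). SOX9 had the lowest miR-124 ratio of the 10, 0.610 (0.460 to 0.805), but it rested on 84 and 141 reads. Its FPKM was 3.94 in the control and 1.78, 2.39, and 2.41 in the miR-1, miR-122, and miR-124 libraries, so that the control RNA library stood above all 3 mimics. With miR-1 the ratio was 0.452 (0.344 to 0.593), lower than with miR-124, and SOX9 has a miR-1 8mer. Such an 8mer was present in 3 of the 10 genes (CD164, CDK6, and SOX9), beside 5.99% of the 11206 genes with a 3′ UTR. Its part in the SOX9 ratio was not tested. Against the other mimics pooled, the miR-124 ratio was 1.19 (0.907 to 1.56).
SOX9, miR-1 8mer ACATTCCA in capitals, chr17:72125468-72125497, plus strand: acaccagcagttaaccttcaagACATTCCA

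**Figure D3:**
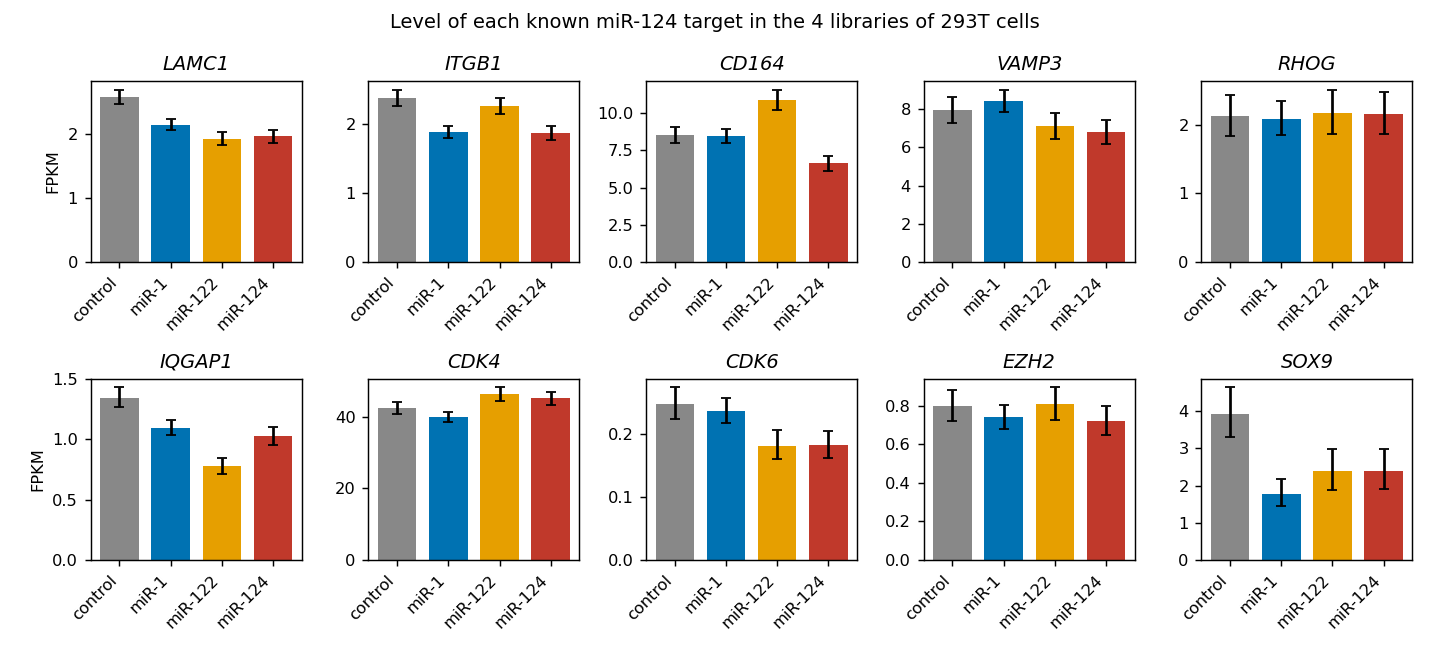
FPKM of each gene (bars, from 0) in the control RNA, miR-1, miR-122, and miR-124 libraries, with 95% counting intervals (exact Poisson) and a scale of its own for each gene. The miR-124 bar is clearly the lowest of the 4 for CD164, whereas for SOX9 the control RNA bar stands above the other 3 and for RHOG the 4 bars are level.

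**Figure D4:**
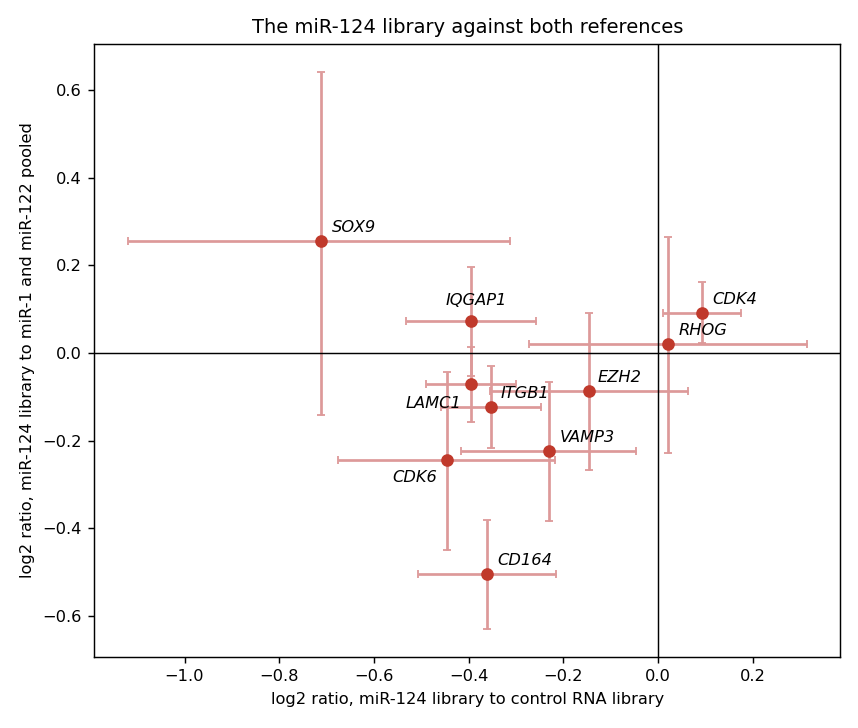
Log2 ratio of the miR-124 library to the control RNA library (horizontal) against its log2 ratio to the miR-1 and miR-122 libraries pooled (vertical), with 95% counting intervals. CD164, CDK6, VAMP3, and ITGB1 have both intervals below 0; IQGAP1 and SOX9 lie left of 0 and above 0. The axes share the miR-124 library.

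Levels of different genes were compared as reads per kilobase of annotated exon, scaled to depth as FPKM is, since FPKM here had been divided by the distance from gene start to gene end, introns included. Annotated exon came to 14561 bases for ITGB1 and 10774 for EZH2, beside 3931 for SOX9. Where it exceeds the mRNA present, the level is too low, so the order is approximate. On the scale of exon reads CDK4 was the highest, with a mean of 116 over the 4 libraries, although its overlap with TSPAN31 leaves this uncertain. LAMC1 (31.2) and VAMP3 (28.1) followed, then CD164 (20.0), RHOG (17.0), ITGB1 (15.2), and IQGAP1 (10.5). EZH2 (5.48), CDK6 (4.02), and SOX9 (3.61) were the lowest. The ranges over the 4 libraries overlapped for most neighbours in this order: LAMC1 (27.9 to 37.4) and VAMP3 (25.2 to 31.3), VAMP3 and CD164 (15.4 to 25.3), CD164 and RHOG (16.7 to 17.3), RHOG and ITGB1 (13.5 to 17.3), and CDK6 (3.44 to 4.70) and SOX9 (2.45 to 5.41). They did not overlap between CDK4 and LAMC1, ITGB1 and IQGAP1 (7.69 to 13.3), IQGAP1 and EZH2 (5.15 to 5.77), or EZH2 and CDK6, although EZH2 overlapped SOX9. Genes of both high and low level were among those at or below a ratio of 0.8 with miR-124.

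Seed matches and ratios within the 10 did not order the genes alike. For the 6 with an 8mer or 7mer-m8 in the longest 3′ UTR, the median ratio with miR-124 was 0.769, with a range of 0.734 to 1.01. For the other 4 it was 0.841, with a range of 0.610 to 1.07, so that the groups overlapped. With the canonical transcripts, in which ITGB1 joins the first group, the medians were 0.778 for 7 genes and 0.904 for 3. Against the mean of the other mimics the medians were 0.918 for the 6 genes and 0.988 for the 4. Over all genes with a 3′ UTR, those with a miR-124 8mer had a median log2 ratio of -0.17 and those without one of -0.05. Against the mean of the other mimics both medians were -0.01. The same medians for miR-1 8mers in the miR-1 library were -0.14 with one and -0.02 without. For miR-122 8mers in the miR-122 library they were -0.04 and 0.02.

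Over all genes, the miR-124 ratio moved with 3′ UTR GC content. From the quintile of genes with the lowest GC content to that with the highest, the median ratio of miR-124 to control was 0.846, 0.875, 0.934, 1.04, and 1.18, and the share of genes at or below 0.8 was 35.1, 27.6, 15.1, 4.46, and 0.759%. Pearson's r between GC content and the log2 ratio across 11206 genes, which are not independent and share both libraries, was 0.611 for miR-124, 0.241 for miR-1, and 0.341 for miR-122. For the miR-124 ratio to the mean of the other mimics, r was 0.427. Of the 10 known targets, 6 were in the 2 quintiles with the lowest GC content (CD164 at 32.2%, SOX9 at 35.4%, EZH2 at 36.1%, IQGAP1 at 36.2%, ITGB1 at 37.0%, and CDK6 at 37.1%). VAMP3 (40.2%) and LAMC1 (40.9%) were in the middle quintile, and CDK4 (48.6%) and RHOG (57.1%), which were not lower with miR-124, were in the upper 2. These values are from the longest annotated 3′ UTR. The canonical transcript of CDK4 has 46.2%, within the range of the middle quintile, and that of ITGB1 33.3%, within the lowest. The part of GC content in the ratios of the 10 genes was not tested.

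An adjustment took from each log2 ratio its trend with 4 measures, namely 3′ UTR GC content, 3′ UTR length, gene length, and reads, as fitted over all genes with a 3′ UTR. After it all 10 ratios with miR-124 were below 1, between 0.650 (SOX9) and 0.956 (CDK4), as were 62.0% of all genes. SOX9 was the 1 gene of the 10 at or below 0.8, a share close to the 8.67% of all genes. RHOG went from 1.01 to 0.833, CD164 from 0.778 to 0.865, and LAMC1 from 0.760 to 0.832. The median log2 ratio of the 10 was then -0.20, and that of all genes -0.06. Against the mean of the other mimics, the adjusted ratio was 0.742 for CD164, between 0.895 and 1.03 for LAMC1, ITGB1, VAMP3, RHOG, CDK4, CDK6, and EZH2, 1.17 for IQGAP1, and 1.20 for SOX9.

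**Figure D5:**
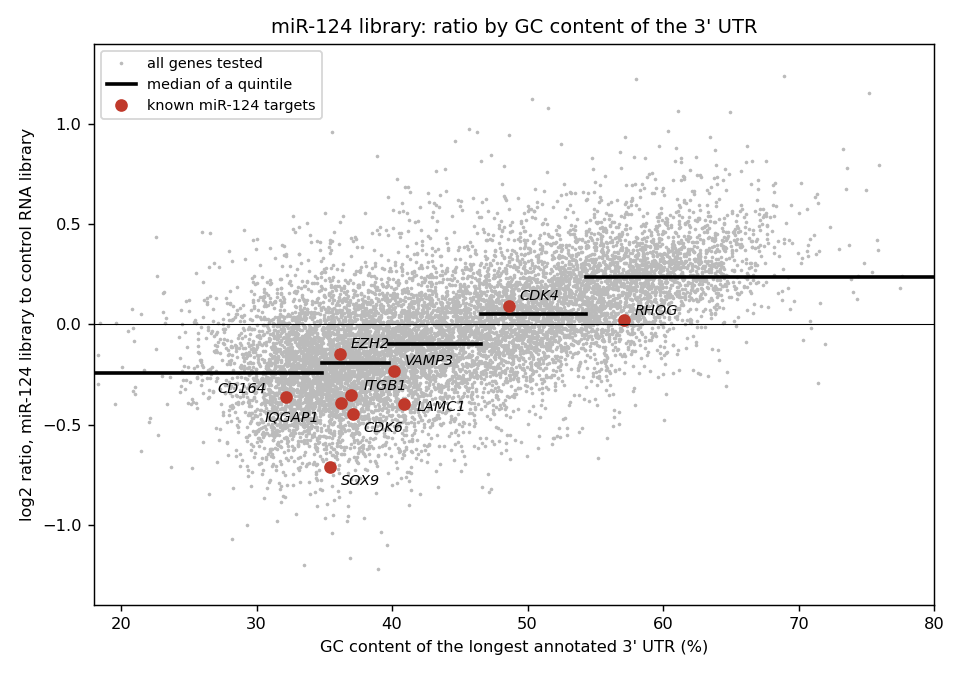
Log2 ratio of the miR-124 library to the control RNA library (vertical) against the GC content of the longest annotated 3′ UTR in percent (horizontal). Grey points are the 11206 genes, 8 of which lie outside the axes, black lines the median of each quintile, and red points the 10 known targets, of which 8 lie below the median of their quintile and EZH2 and CDK4 above it.

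Genes that act with the known targets were taken from lists of related genes. Of 25 other published miR-124 targets, 23 were tested, and with miR-124 4 of them were at or below 0.8 and 2 were higher by that fold, beside 16.3 and 10.3% of all genes, with a median log2 ratio of -0.03. ROCK1, a kinase of actin contractility, had a ratio of 0.682 (0.573 to 0.810), and SP1, a transcription factor, had 0.709 (0.634 to 0.793). DLX2, a homeobox factor of forebrain neurons, had 1.37 (1.13 to 1.66), and EGR1, an immediate early factor, 1.48 (1.02 to 2.15). Set against the miR-1 and miR-122 mean, 0 of the 23 were at or below 0.8, beside 6.84% of all genes. Against their pooled reads SP1 was at 1.01 (0.913 to 1.12) and ROCK1 at 0.859 (0.734 to 1.00). On the same scale DLX2 was at 1.28 (1.09 to 1.49) and EGR1 at 0.994 (0.749 to 1.31).

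Among the other laminins and integrins, 4 of 21 genes tested were at or below 0.8 and 4 higher by that fold with miR-124. The shares of all genes were 16.3 and 10.3%. The median log2 ratio of the list was -0.10. ITGA4, an integrin α subunit that pairs with integrin β1, had a ratio of 0.434 (0.309 to 0.604) to control and 0.676 (0.489 to 0.922) to the other mimics pooled. ITGA3, the α subunit of a laminin receptor with integrin β1, had 1.37 (1.12 to 1.67) and 1.47, with an interval above 1. The partners of ITGB1 were thus on both sides of 1. ITGB8 was at 0.738 (0.510 to 1.06) and LAMB3, a laminin β chain, at 1.38 (1.05 to 1.81). To the other mimics pooled, they were at 0.827 (0.595 to 1.13) and 1.39 (1.11 to 1.73).

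Of 12 SNAREs and CD164-like sialomucins tested, 2 were at or below 0.8 and 1 higher by that fold, beside 16.3 and 10.3% of all genes. Their median log2 ratio was -0.10. VAMP4 was at 0.722 (0.492 to 1.05) and SNAP23, a SNARE partner of VAMP3 at the plasma membrane, at 0.752 (0.614 to 0.920). STX4, a plasma membrane syntaxin, was at 1.20 (1.01 to 1.43), and VAMP2, the synaptobrevin most like VAMP3, was at 1.59 (1.16 to 2.18). Both were also higher than control with miR-122, STX4 at 1.36 (1.15 to 1.61) and VAMP2 at 1.48 (1.07 to 2.06). The miR-124 ratio to the other mimics pooled was 0.930 (0.811 to 1.06) for STX4. For VAMP2 it was 1.19, with an interval that included 1. It was 0.835 (0.593 to 1.16) for VAMP4 and 0.818 (0.683 to 0.975) for SNAP23.

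Of 14 regulators and substrates of CDK4 and CDK6, 2 were at or below 0.8, RBL1 at 0.664 (0.546 to 0.806) and RB1 at 0.772 (0.663 to 0.897), both pocket proteins that the kinases phosphorylate. A further 1 was higher by that fold, CDKN2D, an inhibitor of both kinases, at 1.80 (1.33 to 2.45) while CCND3, a D-type cyclin, was at 1.19 (1.04 to 1.36), and the median log2 ratio of the list was 0.01. Over all genes, 16.3% were at or below 0.8 and 10.3% higher by that fold. Against the other mimics pooled, CDKN2D was at 1.41 (1.11 to 1.77), CCND3 at 1.29 (1.16 to 1.45), RBL1 at 0.803 (0.673 to 0.955), and RB1 at 1.07 (0.932 to 1.23). RB1 was lower with miR-1, at a ratio of 0.679 to control, than with miR-124. Of 12 genes of PRC2 and its opponents, 3 were at or below 0.8 and 1 higher by that fold, beside the same 16.3 and 10.3% of all genes. Their median log2 ratio was -0.17. EZH1, the other methyltransferase of PRC2, had 0.698 (0.577 to 0.842), KDM6A, a demethylase of the same mark, 0.698 (0.590 to 0.824), PHF1 1.14 (0.947 to 1.37), and PHF19 1.27 (1.05 to 1.55). Set against the other mimics pooled, EZH1 was at 0.886 (0.746 to 1.05) and KDM6A at 0.916 (0.786 to 1.06). On the same scale PHF1 was at 1.08 (0.928 to 1.26) and PHF19 at 1.17 (1.00 to 1.37).

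Of the 6 other SOX factors tested, 0 were at or below 0.8 with miR-124 and 2 were higher by that fold, beside 16.3 and 10.3% of all genes. Their median log2 ratio was 0.01. SOX6 had 0.846 (0.609 to 1.17) and SOX4 0.931 (0.859 to 1.01), while SOX12 had 1.48 (1.37 to 1.59) and SOX8, a close relative of SOX9, had 1.58 (1.29 to 1.95). Against the other mimics pooled, SOX8 was at 1.72 (1.45 to 2.04), SOX12 at 1.34 (1.26 to 1.43), SOX4 at 1.21 (1.12 to 1.30), and SOX6 at 1.21 (0.897 to 1.62). On that scale the 1.19 of SOX9 was among them.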

How the data were processed

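The authors trimmed the single-end reads, aligned them to GRCh38, and deposited 1 FPKM value per gene and library. The submitters' processing notes name CASAVA 1.8 and HISAT2 2.0.0, and the counting program and annotation are not given in the sources used here. FPKM values were whole multiples of what 1 read is worth (tolerance 0.002) at a length close to the distance from gene start to end. The depth and reads of 32357 of 32358 genes above 0 were recovered with that length or a fitted one, and reads of genes with a fitted length can be off by a whole factor. Ratios were taken without a pseudocount over genes with at least 200 reads in the 4 libraries and a value above 0 in each, and called at or below 0.8 or at or above its reciprocal. The 10 genes and the gene lists were chosen with earlier results of these data known. Named were all 10 genes and, from each list, the 2 lowest and 2 highest miR-124 ratios, except for 1 list whose result is not reported here. The seed was to be read from a table of mature miRNAs. That table held no miR-124 entry, so the motifs were those usual for the 3 miRNAs. 3′ UTRs, their sequences, and coordinates came from GENCODE release 44. Samples were grouped by their labels. Alternatives were pseudocounts of 1 and 0.1, centring, the other mimics as the reference, an adjustment by a cubic trend, other filters, and a threshold of 1.5-fold. Canonical transcripts were added after the data were seen. The recovery of depth and reads, the interval, and the adjustment were tested on simulated data. Python 3.11.15, numpy 2.4.6, pandas 2.3.3, scipy 1.17.1, and matplotlib 3.10.9 were used.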

Additional observations from a re-analysis of the deposited data

How the results depend on the processing

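With 1 library per condition no replicate could be left out, and no paired analysis was possible because no condition has a second library. The number of known targets at or below 0.8 with miR-124, which was 6, was 1 with a pseudocount of 1 (SOX9, as a pseudocount compresses the ratios of low values), and also 1 at 1.5-fold and after the adjustment (SOX9 in both), and 1 against the mean of the other mimics (CD164). With miR-1 the 2 became 1 under pseudocounts of 1 and 0.1, centring, the adjustment, and 1.5-fold. With miR-122 the 4 became 2 with a pseudocount of 1 and 2 at 1.5-fold. For the pseudocounts and centring, the share of all genes was not computed. The share of all genes at or below the threshold moved to 29.4% for the miR-1 and 21.5% for the miR-122 library when genes above an FPKM of 0.004 in both libraries were taken, 7.62% with miR-122 at 1000 reads or more, and at 1.5-fold 4.89, 2.34, and 3.06% with miR-1, miR-122, and miR-124. The median log2 ratio of the 10 with miR-124 became -0.077 against the mean of the other mimics, on which scale IQGAP1 (0.13) and SOX9 (0.21) changed direction. Where neither a stricter threshold nor a pseudocount was the change, the cause was not tested. Under centring and a pseudocount of 0.1, no single ratio with miR-124 moved beyond its interval. SOX9, RHOG, and CDK6 had the fewest reads, which limits them most.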
